A study of Mus musculus with 39 samples.

Results

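Duodenal RNA was compared between 6 mouse libraries labelled Leptin-antibiotic (replicates 1 to 6) and 6 labelled Saline-water (replicates 9 to 14), the double treatment and the double control among the libraries that share 1 prefix in their column names, called here a set. The 12 libraries were chosen by those titles and by that prefix, out of 39 libraries in all. Every gene of the deposited table was used. All animals were male wild-type C57BL/6 mice of 8 weeks on standard chow with a cannula in the right lateral ventricle of the brain. The Leptin-antibiotic mice drank ampicillin at 1 g/L and neomycin at 0.5 g/L for 48 h and then received 3 µg of leptin through the cannula. The Saline-water mice drank water and received saline by the same route. Both groups shared the surgery 3 days earlier, food deprivation for 2 h before the injection in the early light period, and collection 2 h after it. The Saline-antibiotic and Leptin-water groups of the same set, 6 libraries each, enter the fit and are given beside the main comparison where their values bear on it. The labels state neither that each library is a separate animal nor how the animals were caged or processed in batches, so the p-values measure the spread between these libraries.

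Leptin is a hormone of fat tissue that acts on the brain through the long form of its receptor and the JAK-STAT pathway, and delivery into a brain ventricle reaches that tissue first. The duodenum is the first stretch of the small intestine, where enterocytes finish the digestion of sugars, peptides and fat and take up the products, and where calcium and iron are absorbed. Ampicillin and neomycin lower the number of gut bacteria, and in mice the lectins Reg3b and Reg3g and the oxidase Duox2 of the epithelium are known to depend on bacterial signals, while many absorption genes follow the daily clock and glucocorticoids.

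Libraries held 45839800 to 67870777 counts in Leptin-antibiotic and 35411734 to 48923372 in Saline-water, and none of the 15 pairs within either group held identical values. The ribosomal RNA gene Rn45s took 6.08% to 11.6% of counts in Leptin-antibiotic and 4.5% to 11.2% in Saline-water. Duodenal markers were present in all 12 libraries, with Pdx1 at 103 to 198 CPM (read counts scaled to a common library size) and the sucrase gene Sis at 2030 to 5520 CPM. Some libraries stood apart. Saline-water 9 had far higher Reg3b, Reg3g and B3galt5 than any other library of its group and the lowest Cubn and Lct. Saline-water 10 was high in glucocorticoid-responsive genes, and Leptin-antibiotic 2 in interferon-responsive genes. Leptin-antibiotic 3 was high in exocrine pancreas genes, with a mean of 5.66 log2 CPM over 28 genes against at most 2.77 in the other Leptin-antibiotic and 3.32 in the Saline-water libraries. Results that rest on these libraries are given with and without them.

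Promoters are shown for Hlf and Usp2 of the clock-output list and S100g of the calcium list, the 3 genes with the lowest p-values among the called members of the clock, glucocorticoid and calcium lists. Hlf encodes a clock-output transcription factor, Usp2 a deubiquitinase with a daily rhythm, and S100g the calcium-binding protein calbindin-D9k. Each is the RefSeq window from 250 bases before to 50 after the gene start (build GRCm38.p6), written 5′ to 3′ on the gene's strand. They lie at chr11:90390868-90391167 on the minus strand, chr9:44084670-44084969 on the plus strand and chrX:162964550-162964849 on the minus strand. Capitals mark matches to searched motifs.
Hlf: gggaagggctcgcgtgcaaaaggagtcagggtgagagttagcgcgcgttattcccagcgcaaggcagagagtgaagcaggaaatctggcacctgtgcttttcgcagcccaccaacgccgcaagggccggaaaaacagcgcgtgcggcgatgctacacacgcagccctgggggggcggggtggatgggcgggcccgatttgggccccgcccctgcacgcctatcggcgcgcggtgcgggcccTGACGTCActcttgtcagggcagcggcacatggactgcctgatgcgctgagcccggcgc
Usp2: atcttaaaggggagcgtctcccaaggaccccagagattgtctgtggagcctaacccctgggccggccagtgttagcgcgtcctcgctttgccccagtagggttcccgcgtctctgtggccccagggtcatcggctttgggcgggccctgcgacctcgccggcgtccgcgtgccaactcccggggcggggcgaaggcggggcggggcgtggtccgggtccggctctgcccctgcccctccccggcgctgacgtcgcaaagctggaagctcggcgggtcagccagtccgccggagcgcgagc
S100g: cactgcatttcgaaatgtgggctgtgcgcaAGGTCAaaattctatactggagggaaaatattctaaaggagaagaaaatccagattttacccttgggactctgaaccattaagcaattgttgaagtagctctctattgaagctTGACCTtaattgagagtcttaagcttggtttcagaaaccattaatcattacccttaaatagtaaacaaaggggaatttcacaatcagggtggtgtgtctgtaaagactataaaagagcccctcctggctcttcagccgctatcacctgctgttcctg
The search, on both strands, covered the E-box CACGTG, the D-box core TTATGNAA, the cAMP response element TGACGTCA, the glucocorticoid receptor half-site AGAACA and the nuclear receptor half-site AGGTCA. Hlf held 1 match to the cAMP response element, 9 bases before the gene start, a motif that 1.79% of 32851 promoter windows of the same length hold. S100g held 2 nuclear receptor half-sites, at 220 and 107 bases before the start, the second as its reverse complement TGACCT. That half-site occurs in 16.3% of the windows. Usp2 held no match in this window. The E-box occurs in 7.15% of the windows, the D-box core in 3.38% and the glucocorticoid receptor half-site in 19%. These matches describe the letters only.

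Of 16340 genes tested with edgeR's quasi-likelihood test over the 24 libraries of the set, 1284 (7.86%) were higher and 525 (3.21%) lower in Leptin-antibiotic than in Saline-water at a Benjamini-Hochberg adjusted p under 0.05. Genes that passed are said below to have risen or fallen. Most changes were small. The median log2 fold change was 0.355 among genes that rose and -0.443 among those that fell, and 68 rose and 48 fell by more than 2-fold. Levels of the 2 groups did not overlap for 758 genes (4.64%), of which 687 passed the test. Over all genes tested the median log2 fold change was -0.02 and 46.6% were positive.

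The balance of the directions depended on the scaling and the filter. Upper quartile scaling gave 731 higher and 1173 lower, leaving Rn45s out of the library sizes gave 1029 and 688, no filter on low counts gave 1026 and 686, and a floor of 1 on the mean log2 CPM gave 992 and 713. No gene called here turned its sign in any of these fits. A fit of the 12 compared libraries alone called 558 genes higher and 277 lower. With 1 library left out in turn the total was 1098 without Saline-water 12, 1179 without Leptin-antibiotic 2, 1199 without Saline-water 11 and at most 2056, and 335 genes were lower without Leptin-antibiotic 3.

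**Figure D1:**
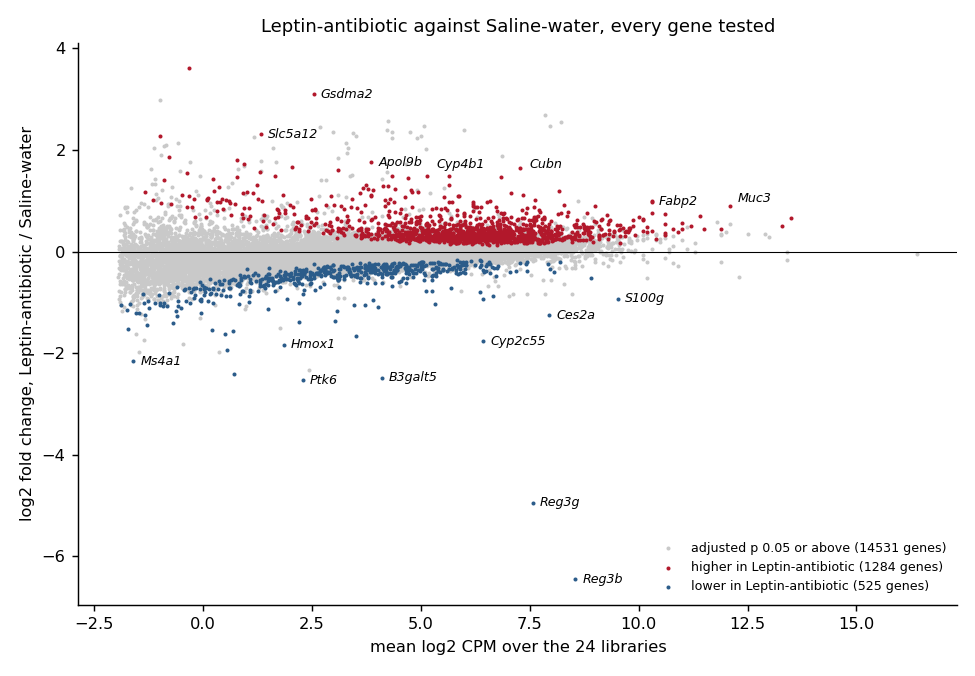
Each point is 1 of the 16340 genes tested, by its mean log2 CPM over the 24 libraries (x axis) and its log2 fold change, Leptin-antibiotic over Saline-water (y axis). Red points are the 1284 genes that were higher and blue points the 525 that were lower at an adjusted p under 0.05; Reg3b and Reg3g lie far below all others.

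The larger rises included Cubn, Slc5a12, Slc13a2 and Slc5a4a, genes of uptake at the brush border. Group values are given as the lowest, median and highest library in CPM. Cubn (chr2:13276338-13491813), cubilin, the receptor that takes up the vitamin B12 complex in the distal small intestine, stood at 180, 263 and 286 in Leptin-antibiotic, against 20.4, 95.9 and 122 in Saline-water. It was higher by 1.65 on the log2 scale (SE 0.354, adjusted p = 0.00494), and all 6 Leptin-antibiotic libraries lay above every Saline-water library. Without Saline-water 9, the lowest library, it was 1.42.

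Sodium-coupled carriers of organic acids and sugars were among the strongest rises. Slc5a12, a lactate and short-chain monocarboxylate carrier, had 1.64, 4.43 and 6.17 CPM in Leptin-antibiotic and 0.354, 0.572 and 2.09 CPM in Saline-water (log2 fold change 2.31, SE 0.59, adjusted p = 0.0139). Of the Leptin-antibiotic libraries 5 were above every Saline-water library and the lowest was not. Slc13a2, the citrate and succinate carrier, had 42.9, 86.1 and 103 CPM in Leptin-antibiotic and 17.1, 29.4 and 39.6 CPM in Saline-water (log2 fold change 1.49, SE 0.307, adjusted p = 0.00363). Slc5a4a, a member of the sodium-glucose cotransporter family, had 41.3, 52.7 and 71.2 CPM in Leptin-antibiotic and 6.21, 18.3 and 31.3 CPM in Saline-water (log2 fold change 1.48). Neither of these last genes overlapped between the groups.

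The lowest p-value of the comparison belonged to Cyp4b1 (chr4:115624725-115647723), a cytochrome P450 that acts on fatty acids and foreign compounds. It stood at 146, 174 and 234 CPM in Leptin-antibiotic against 52.1, 62.2 and 83.4 CPM in Saline-water, higher by 1.47 on the log2 scale (SE 0.161, adjusted p = 3.5e-05), with no overlap. It kept a value of 1.39 to 1.52 when each of the 12 libraries was left out in turn. The next lowest were Nek6, a mitotic kinase (log2 fold change 0.73), Plscr1 (0.96) and Ano6 (0.91), both phospholipid scramblases of the plasma membrane, and Prr15 (0.89), each at an adjusted p of 4.89e-05 and each without overlap. Ano6 averaged 425 ± 57.2 CPM in Leptin-antibiotic and 226 ± 27.9 CPM in Saline-water (SD, n = 6 each).

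The remaining leading rises were of varied kinds. The P450 gene Cyp2c38 (log2 fold change 1.66, adjusted p = 0.00314), the orphan receptor Gpr151 (1.60, 0.000961) and the coiled-coil gene Ccdc170 (1.57, 0.000245) did not overlap between groups. Gpr151 averaged 15.4 ± 3.08 CPM in Leptin-antibiotic and 5.06 ± 2.24 CPM in Saline-water (SD, n = 6 each). Gsdma2, of the pore-forming gasdermin family, had the largest rise among genes whose mean log2 CPM reached 1, at 3.10 (SE 0.817, adjusted p = 0.0168) but overlapped widely, with 0.338, 4.28 and 35.4 CPM in Leptin-antibiotic and 0.38, 1.02 and 2.21 CPM in Saline-water. Without Leptin-antibiotic 5, the highest library, the log2 difference was 1.92 (adjusted p = 0.0817). Tff1, a trefoil peptide of the stomach mucosa that did not pass (log2 fold change 2.40, adjusted p = 0.0798), had 0.253, 39.9 and 279 CPM in Leptin-antibiotic and 1.34, 14.5 and 22.6 CPM in Saline-water. Both genes were highest in Leptin-antibiotic 5 and lowest in Leptin-antibiotic 1. Of 19 Brunner gland and stomach markers tested none passed, and their mean was 3.55 to 7.6 log2 CPM in Leptin-antibiotic, highest in replicate 5, and 4.23 to 5.9 log2 CPM in Saline-water. Their part in the Gsdma2 result was not tested. Values of genes with near-identical relatives (Gsdma2, Cyp2c38, Slc5a4a, Apol9b, Oas1a and Mt2 among those named here) are uncertain, since no source used here says how reads shared between copies were counted.

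The largest fall was that of Reg3b, a lectin of epithelial defence. Reg3b (chr6:78370657-78373466) had 2.98, 14.7 and 26 CPM in Leptin-antibiotic and 24.8, 97.4 and 7110 CPM in Saline-water (log2 fold change -6.45, SE 1.32, adjusted p = 0.00352). Of the 6 Leptin-antibiotic libraries 5 were below every Saline-water library. Saline-water 9 held the value of 7110 CPM, the next being 265 CPM, and without it the log2 fold change was -3.01 (adjusted p = 0.0212). Ptk6, a non-receptor tyrosine kinase of differentiating epithelium, fell by 2.53 on the log2 scale with all libraries and by 1.32 without Saline-water 9 (adjusted p = 0.0128).

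Among detoxification genes, Cyp2c55 and Ces2a fell in all 12 fits with a library left out. Cyp2c55, a P450 known in mice as a target of the xenobiotic receptors PXR and CAR, had 27.1, 36.1 and 46.2 CPM in Leptin-antibiotic and 34.3, 132 and 199 CPM in Saline-water (log2 fold change -1.77, SE 0.327, adjusted p = 0.0019). Ces2a, a carboxylesterase, had 117, 140 and 164 CPM in Leptin-antibiotic and 131, 295 and 571 CPM in Saline-water (log2 fold change -1.25, SE 0.245, adjusted p = 0.00243). In both genes Saline-water 9 was the one Saline-water library within the Leptin-antibiotic range, and without it the falls were 1.99 and 1.44 on the log2 scale. The genes with the lowest p-values among the falls were Adgrf1, an adhesion receptor (-1.12, adjusted p = 0.000158), Shroom1, an actin-binding protein (-0.83, 0.000552), Rfx5, a transcription factor of class II antigen-presentation genes (-0.42, 0.000895), Sestd1 (-0.34, 0.000992) and Fryl (-0.40, 0.00139). None of these 5 overlapped between the groups.

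**Figure D2:**
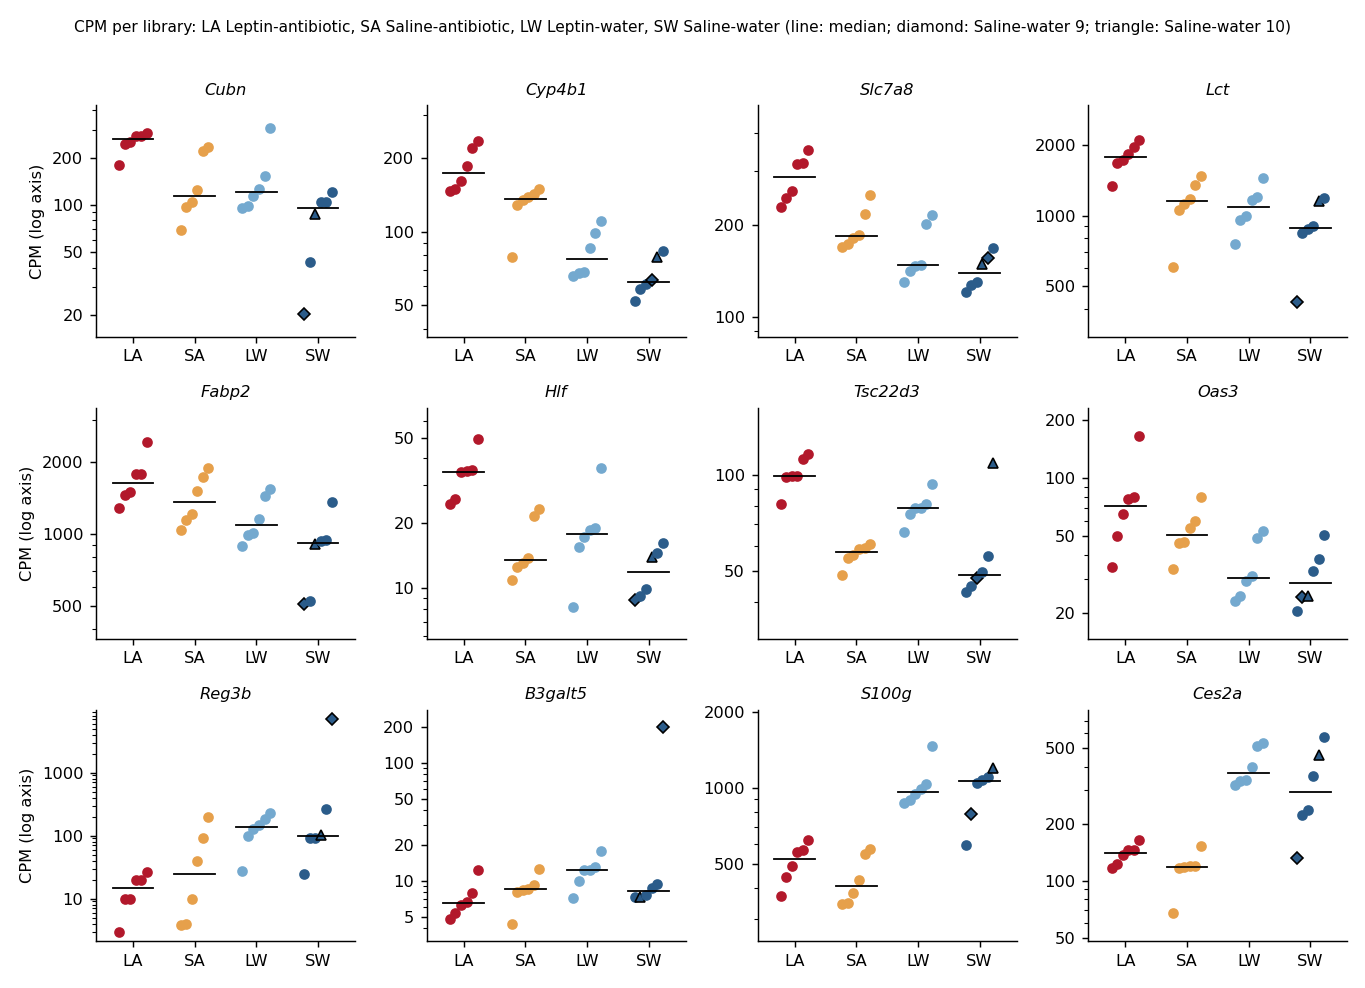
CPM of 12 genes in each library (log y axes), from left to right Leptin-antibiotic (LA), Saline-antibiotic (SA), Leptin-water (LW) and Saline-water (SW), 6 libraries each, with a line at the median. Cubn stands at 180 to 286 CPM in Leptin-antibiotic against 20.4 to 122 in Saline-water, and the diamond, Saline-water 9, is the single library at 7110 CPM of Reg3b and 202 CPM of B3galt5.

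Genes of sugar digestion and transport rose broadly. Of 20 tested, 12 rose, none fell and 19 had a positive log2 fold change, with a median of 0.54 beside -0.02 over all genes; 7.86% of all genes rose. Lct (chr1:128284756-128328318), lactase, had 1340, 1780 and 2100 CPM in Leptin-antibiotic and 428, 890 and 1190 CPM in Saline-water (log2 fold change 0.98, SE 0.205, adjusted p = 0.00423). Slc5a1, SGLT1, the main carrier of glucose across the brush border, had 2810, 3600 and 4500 CPM in Leptin-antibiotic and 1650, 2310 and 2630 CPM in Saline-water (0.70, SE 0.161, adjusted p = 0.0071). Neither gene overlapped, and the same held for Slc5a11, a myo-inositol carrier (0.88, adjusted p = 0.000158), and for Treh, trehalase (0.63, adjusted p = 0.00267). With 1 library left out in turn, 10 to 13 members rose. In whole duodenum, more cells of a type and more RNA per cell cannot be told apart.

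Genes that finish protein digestion rose with them. Of 14 brush border peptidases, 9 rose and 13 were positive (median 0.57), and 10 of 19 amino acid and peptide carriers rose and 15 were positive (median 0.45), with no fall in either list. Slc7a8 (chr14:54722209-54781946), the LAT2 exchanger of neutral amino acids, had 228, 287 and 350 CPM in Leptin-antibiotic and 121, 139 and 168 CPM in Saline-water (log2 fold change 1.01, SE 0.133, adjusted p = 8.6e-05), with no overlap. Slc7a7, which exports cationic amino acids (0.55, adjusted p = 0.000992), Slc7a15 (0.65, 0.00298) and Slc3a2, the heavy chain that pairs with such exchangers (0.51, 0.00347), did not overlap either. Among the peptidases, Xpnpep2, an aminopeptidase P, averaged 26 ± 6.5 CPM in Leptin-antibiotic and 13.4 ± 1.05 CPM in Saline-water (SD, n = 6 each). Naaladl1 (0.88, adjusted p = 0.000552), Mep1a, a meprin subunit (0.63, 0.00524), and Mme, neprilysin (0.68, 0.00613), also rose. Without Leptin-antibiotic 3 or without Saline-water 12, 5 peptidases rose.

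Many genes of fat absorption rose. Of 29 tested genes 12 rose, none fell and 26 were positive (median 0.32). Fabp2 (chr3:122895072-122899506), the intestinal fatty acid binding protein, had 1290, 1640 and 2420 CPM in Leptin-antibiotic and 508, 917 and 1360 CPM in Saline-water (log2 fold change 0.99, SE 0.212, adjusted p = 0.00491). Only the lowest Leptin-antibiotic library fell below the highest Saline-water library. Apoc3, a lipoprotein component (1.12, SE 0.174, adjusted p = 0.000546), Dgat2 (0.77, SE 0.159, adjusted p = 0.00359) and Dgat1 (0.42, SE 0.0886, adjusted p = 0.00438), which make triglyceride, did not overlap between the groups. Fabp1 rose by 0.58 (adjusted p = 0.00915). Between 8 and 15 members rose when 1 library was left out.

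Transcripts of the respiratory chain, which makes ATP in mitochondria, rose in 20 of 30 nuclear-encoded members and all 30 were positive (median 0.35). Ndufb10, a subunit of complex I, had 64.3, 72.1 and 83.2 CPM in Leptin-antibiotic and 45.3, 52.8 and 54.3 CPM in Saline-water (log2 fold change 0.50, SE 0.0648, adjusted p = 8.18e-05). Ndufb3 (0.47), Cox6a1 of complex IV (0.45) and Cyc1 of complex III (0.38) rose as well, and all of these subunits lay higher in every Leptin-antibiotic library than in any Saline-water library. The count was 7 without Saline-water 12 and 9 without Leptin-antibiotic 3, 11 under upper quartile scaling and 6 in the fit of 12 libraries. The 30 cytosolic ribosomal protein genes had 26 positive values with a median of 0.09 and none passed.

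Markers of mature enterocytes at the villus tip moved beside these lists. Of 24 such genes 7 rose and none fell, among the rises Vil1, the brush border protein villin (0.44, adjusted p = 0.0143), and their summed level was 39800 to 57000 CPM in Leptin-antibiotic and 28400 to 43200 CPM in Saline-water. Lct, Fabp1 and Fabp2 stand both in that list and in the absorption lists. Without Leptin-antibiotic 2 or 3, or without Saline-water 11 or 12, 4 of the markers rose. Stem cell and Wnt target genes were negative in 16 of 17, with 1 fall, Axin2, a feedback gene of the Wnt pathway (-0.42, adjusted p = 0.0272), which passed in 9 of 12 fits with a library left out. Cell cycle genes were negative in 22 of 30 and none passed. Over all genes 3.21% fell and 46.6% were positive. The part of cell composition in the absorption results was not tested.

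Some genes known for the distal small intestine rose in the duodenum. Of 7 tested 6 were positive and 4 rose, beside 7.86% of all genes that rose. The 4 were Cubn, its membrane partner Amn (0.54, SE 0.0971, adjusted p = 0.00162), the guanylin gene Guca2a (0.50, adjusted p = 0.00949) and Slc10a2, the bile acid carrier of the ileal brush border. Slc10a2 was scarce, at 1.65, 2.66 and 3.21 CPM in Leptin-antibiotic and 0.631, 0.978 and 1.18 CPM in Saline-water, but did not overlap (log2 fold change 1.46, SE 0.229, adjusted p = 0.000552). Each of these 4 passed in all 12 fits with a library left out. Among bile acid and sterol genes 4 of 12 rose, none fell, and these were Slc10a2, Cyp27a1, a sterol 27-hydroxylase (0.83, adjusted p = 0.00359), Nr0b2, the repressor SHP induced by the bile acid receptor (0.92, 0.00499), and Nr1h3, the oxysterol receptor LXRα (0.29, 0.00859). Regional transcription factors gave 1 rise in 16, Hnf4g, an enterocyte regulator (0.54, adjusted p = 0.00499), and a median of -0.01. That count is near the 7.86% of all genes that rose.

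**Figure D3:**
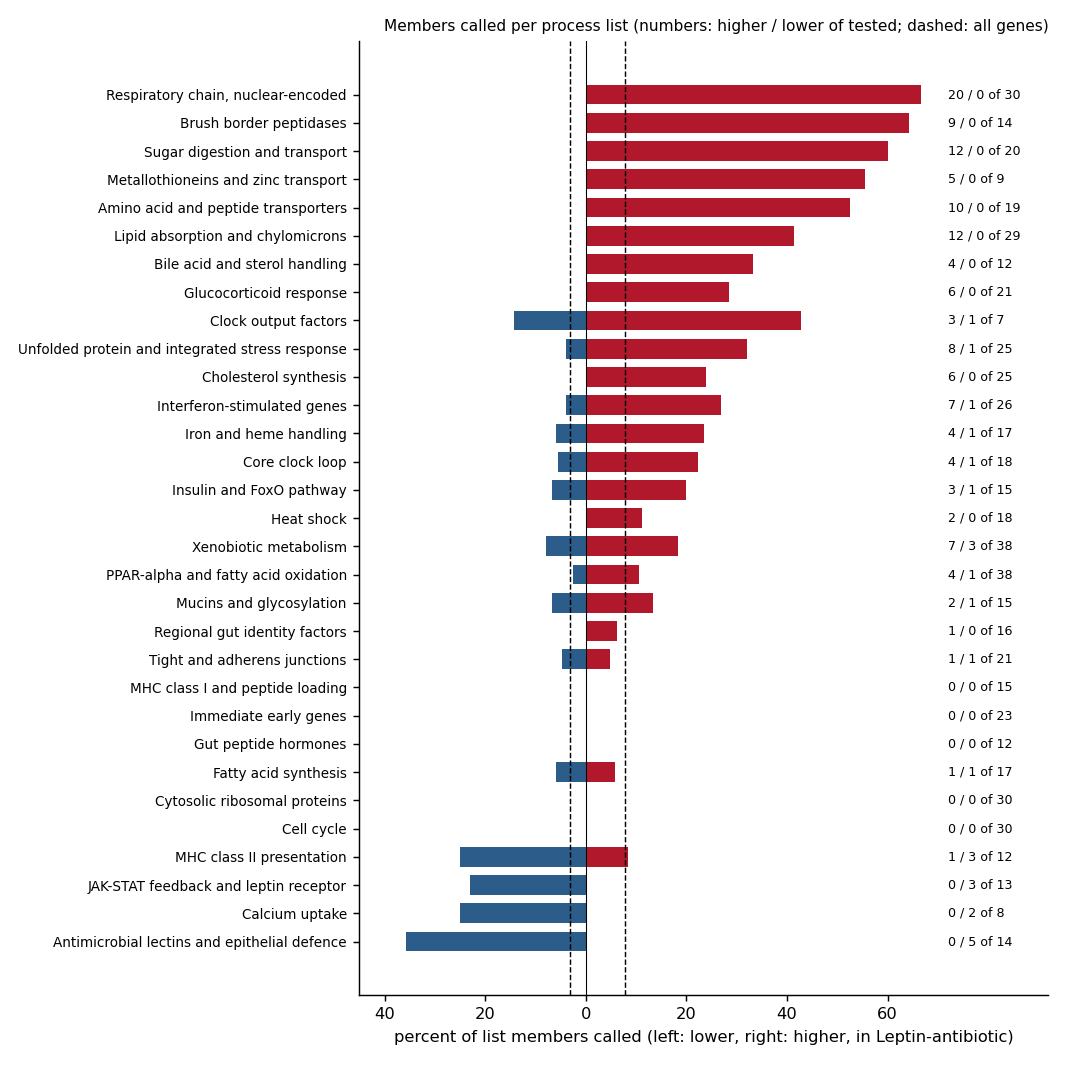
For each of 31 process lists, bars show the percent of its tested members that were lower (blue, left) or higher (red, right) in Leptin-antibiotic than in Saline-water at an adjusted p under 0.05, with the counts at the right. Dashed lines mark the shares over all genes, 3.21% and 7.86%; the respiratory chain, peptidase and sugar lists reach furthest to the right, and the antimicrobial list furthest to the left.

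Some clock-output and glucocorticoid-responsive genes rose. Hlf (chr11:90336536-90390895) had 24.6, 34.7 and 49.2 CPM in Leptin-antibiotic and 8.78, 11.9 and 16.2 CPM in Saline-water (log2 fold change 1.49, SE 0.261, adjusted p = 0.00133). Usp2 had 86, 111 and 142 CPM in Leptin-antibiotic and 47.3, 68.3 and 81.2 CPM in Saline-water (0.78, SE 0.141, adjusted p = 0.00167), and Noct, the phosphatase nocturnin, had 115, 135 and 146 CPM in Leptin-antibiotic and 44.2, 60.7 and 112 CPM in Saline-water (0.98, SE 0.187, adjusted p = 0.00228). For all 3 genes, of which Hlf and Usp2 have their promoters printed above, every Leptin-antibiotic library was above every Saline-water library. Nfil3, a repressor that competes with Hlf for the D-box, fell by 1.01 on the log2 scale (adjusted p = 0.0077), with 2.27, 3.01 and 4.21 CPM in Leptin-antibiotic and 3.08, 6.53 and 8.42 CPM in Saline-water. These 4 were the genes that passed among 7 clock-output genes.

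The core clock loop moved less, with 4 rises and 1 fall in 18 genes and a median of 0.15. Nr1d2, the repressor REV-ERBβ, rose by 0.41 (adjusted p = 0.0331) and passed in 6 of 12 fits with a library left out. Per1, a clock repressor that glucocorticoids also induce, had 73.4, 81 and 90.2 CPM in Leptin-antibiotic and 24.8, 46.5 and 85.5 CPM in Saline-water (0.70, SE 0.18, adjusted p = 0.0148). Only Saline-water 10 reached into the Leptin-antibiotic range of Per1. In the fit of 12 libraries no core clock gene passed, and 1 rose without Leptin-antibiotic 1 or 2 or without Saline-water 9, 11 or 12.

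Of 21 glucocorticoid-responsive genes 6 rose, none fell and the median was 0.48. These lists share genes. Per1 is counted among the core clock rises too. Mt2 and the other metallothionein gene of the 6 are also counted among the rises of the zinc and metallothionein list. Tsc22d3 (chrX:140539528-140600659), the anti-inflammatory mediator GILZ, had 81.1, 99.1 and 116 CPM in Leptin-antibiotic and 42.9, 48.5 and 109 CPM in Saline-water (log2 fold change 0.79, SE 0.16, adjusted p = 0.00321). The value of 109 CPM was Saline-water 10, and the next highest was 55.8 CPM. Without that library the log2 fold change was 1.07. Bcl6, a transcriptional repressor, followed the same pattern (0.67, adjusted p = 0.0137), with Saline-water 10 at 46.1 CPM and the next at 25.9 CPM. Fkbp5, a chaperone of the glucocorticoid receptor, had 109, 152 and 221 CPM in Leptin-antibiotic and 28.2, 99.3 and 152 CPM in Saline-water, a log2 difference of 0.74 that did not pass (adjusted p = 0.122). With 1 library left out in turn, 4 to 10 of the list's members rose and the median was 0.323 to 0.617. The 10 rises were those without Saline-water 10. The list gave 1 fall without Saline-water 11 or without Saline-water 13. Without both Saline-water 9 and Saline-water 10, 11 of the list's members rose and its median was 0.658.

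Of 8 calcium uptake genes tested 2 fell, and 6 were negative, beside 3.21% of all genes that fell and 46.6% that were positive. S100g (chrX:162961992-162964599) had 371, 522 and 622 CPM in Leptin-antibiotic and 595, 1060 and 1200 CPM in Saline-water (log2 fold change -0.93, SE 0.17, adjusted p = 0.00176). Saline-water 13 alone of its group lay within the Leptin-antibiotic range. Trpv6, the calcium entry channel of the brush border, had 21.2, 27.3 and 37.9 CPM in Leptin-antibiotic and 31, 61.2 and 74.2 CPM in Saline-water (-1.02, SE 0.232, adjusted p = 0.00671). Saline-water 9 was its lowest Saline-water library.

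Zinc and metallothionein genes rose in 5 of 9 tested. Mt2, a metal-binding metallothionein, had 12.7, 34.7 and 48.7 CPM in Leptin-antibiotic and 7.26, 11.8 and 25.7 CPM in Saline-water (log2 fold change 1.23, adjusted p = 0.013). Mtf1, the zinc-sensing transcription factor (0.35, adjusted p = 0.00163), and the zinc carriers Slc30a2 (0.48, 0.00486) and Slc39a5 (0.29, 0.0113) rose too, both carriers without overlap. In iron and heme handling 4 of 17 rose and 1 fell, with 1 rise without Leptin-antibiotic 3 or Saline-water 11 or 12. The heme exporter Flvcr1 rose (0.74, SE 0.152, adjusted p = 0.00367), and Hmox1, which degrades heme, fell by 1.83 on the log2 scale (adjusted p = 0.00595). Hmox1 had 1.41, 2.23 and 2.45 CPM in Leptin-antibiotic and 3.13, 3.73 and 25 CPM in Saline-water, and without Saline-water 13, the highest library, it fell by 0.86 on the log2 scale (adjusted p = 0.00792).

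Xenobiotic metabolism split, with 7 rises and 3 falls in 38 genes. Cyp2d26 rose, with 297, 361 and 455 CPM in Leptin-antibiotic and 136, 233 and 281 CPM in Saline-water (log2 fold change 0.74, SE 0.151, adjusted p = 0.00352). Cyp2c55 and Ces2a were among the falls. Without Saline-water 9 the list gave 2 rises and 9 falls, and without Saline-water 12 it gave 2 and 6.

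Epithelial defence genes fell in 5 of 14 tested and none rose. Reg3g (chr6:78466269-78468872), a lectin that kills Gram-positive bacteria, had 11.4, 18.9 and 28.6 CPM in Leptin-antibiotic and 37, 91.6 and 3100 CPM in Saline-water (log2 fold change -4.94, SE 0.992, adjusted p = 0.00312). All 6 Leptin-antibiotic libraries were below every Saline-water library. Without Saline-water 9, which held 3100 CPM beside a next value of 177 CPM, the log2 fold change was -2.26 (adjusted p = 0.0169). Duox2 (-1.67, adjusted p = 0.0274) and its maturation factor Duoxa2 (-1.54, 0.028) were not called without that library, at -0.79 (0.162) and -0.78 (0.151). The list then gave 2 falls, those of Reg3b and Reg3g, and it also gave 2 falls without Leptin-antibiotic 2, 4 or 6. None of 11 Paneth cell genes passed.

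B3galt5, Pla2g5 and Tifa, also high in Saline-water 9, were not called without it. B3galt5, a glycosyltransferase, had 4.78, 6.46 and 12.4 CPM in Leptin-antibiotic and 7.31, 8.16 and 202 CPM in Saline-water (log2 fold change -2.48, adjusted p = 0.0195), and without that library it stood at -0.19 (adjusted p = 0.645). Pla2g5, a secreted phospholipase, had -0.47 (adjusted p = 0.298) without it, beside -1.39 (0.0417) with all libraries. Pla2g5 passed in 4 of 12 fits with a library left out. Tifa, an adaptor in the sensing of bacterial sugars, had -0.61 (adjusted p = 0.0592) without Saline-water 9, beside -1.37 (0.017). In the 8 Saline-water libraries with the other column prefix, Reg3b ranged over 24, 48.9 and 3100 CPM and B3galt5 over 6.77, 8.4 and 24.3 CPM, scaled over all 39 libraries.

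**Figure D4:**
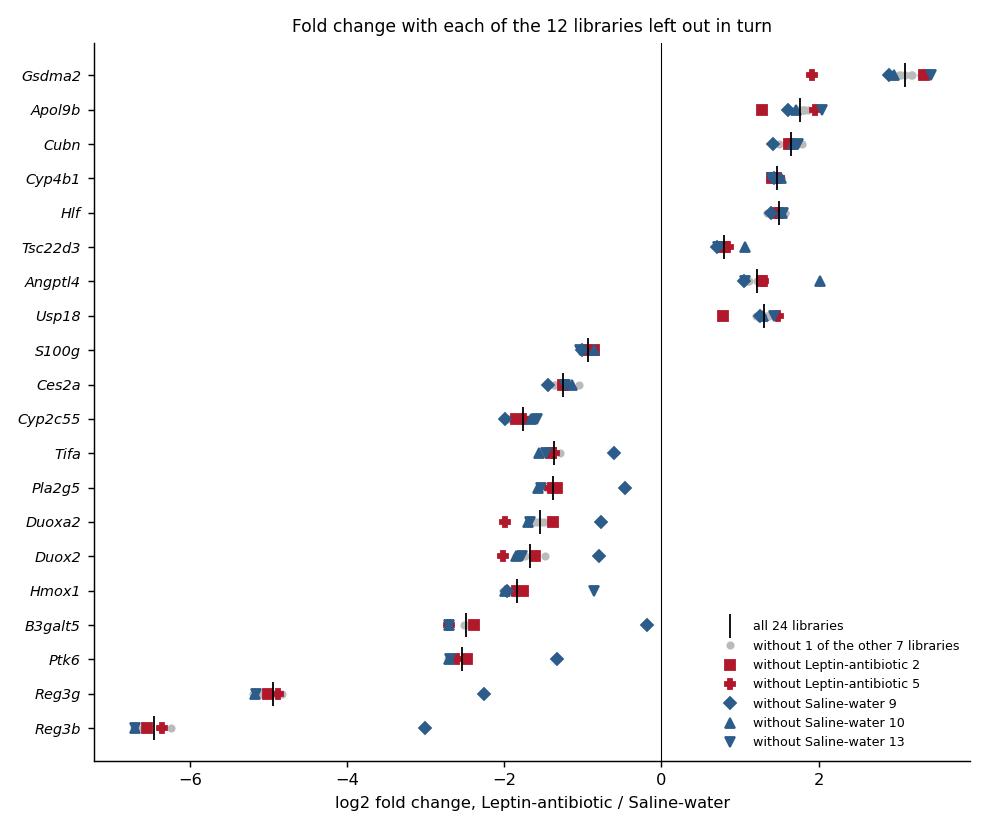
Log2 fold changes, Leptin-antibiotic over Saline-water, of 20 genes in the fit of all 24 libraries (vertical tick) and with each of the 12 compared libraries left out in turn. Blue diamonds, without Saline-water 9, lie far from the other fits for Reg3b, Reg3g, B3galt5, Ptk6, Duox2, Duoxa2, Pla2g5 and Tifa, while Cyp4b1, Hlf and S100g move little.

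Interferon-stimulated genes rose in part. Of 26 tested 7 rose, 1 fell and the median was 0.54. Oas3, a sensor of double-stranded RNA, had 34.6, 71.4 and 165 CPM in Leptin-antibiotic and 20.6, 28.7 and 50.8 CPM in Saline-water (log2 fold change 1.30, SE 0.299, adjusted p = 0.00723). Of the Leptin-antibiotic libraries 4 lay above every Saline-water library, and the value of 165 CPM was Leptin-antibiotic 2. Oas1a (1.07, adjusted p = 0.0119) and Usp18, which limits interferon signalling (1.31, 0.0149), also rose. So did Apol9b, an interferon-induced apolipoprotein that is not in this list (1.76, 0.00554). Without Leptin-antibiotic 2 the log2 fold change of Usp18 was 0.79 (adjusted p = 0.0691), that of Apol9b was 1.28 (0.0233), and the list gave 2 rises and a median of 0.242. Without Saline-water 11 or 12 it gave 3 rises. Against these, the GTPase gene Iigp1, which responds to interferon-γ, had 7.49, 7.89 and 11 CPM in Leptin-antibiotic and 11.8, 16.2 and 30.5 CPM in Saline-water, and fell without overlap (-1.06, SE 0.216, adjusted p = 0.00352).

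Of 12 class II antigen presentation genes 3 fell, 1 rose and 10 were negative (median -0.60). Over all genes 3.21% fell, 7.86% rose and 46.6% were positive. Ciita, the master activator of class II genes, had 14.8, 15.9 and 19.8 CPM in Leptin-antibiotic and 19.9, 21.8 and 45.9 CPM in Saline-water (log2 fold change -0.69, SE 0.182, adjusted p = 0.0172). The groups did not overlap, but Saline-water 12 at 45.9 CPM stood above the next at 28.8 CPM, and without it the value was -0.48 (adjusted p = 0.0501). The peptide-loading genes H2-DMb1 (-1.06, adjusted p = 0.0335) and H2-DMa (-0.95, 0.0367) each passed in 6 of 12 fits with a library left out. The list's falls numbered 0 without Saline-water 12 and 5 without Saline-water 9. The rise was Ifi30, a lysosomal thiol reductase (0.29, adjusted p = 0.00961). None of 15 class I genes passed.

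Among mucin and glycosylation genes 2 rose and 1 fell in 15. Muc3, a membrane mucin of the brush border, had 5240, 6220 and 8360 CPM in Leptin-antibiotic and 2280, 3490 and 4900 CPM in Saline-water (log2 fold change 0.90, SE 0.2, adjusted p = 0.00599), without overlap. Muc4, another membrane mucin, had 60.6, 72.8 and 75.4 CPM in Leptin-antibiotic and 85, 115 and 236 CPM in Saline-water (-0.88, SE 0.192, adjusted p = 0.00531), also without overlap. The fucosyltransferase gene Fut4 rose (0.69, adjusted p = 0.00243). Muc2, the secreted mucin of goblet cells, stood at 0.19 (adjusted p = 0.293), and of 16 goblet cell genes only the potassium channel gene Kcnk5 passed (0.67, adjusted p = 0.00359).

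Of 13 genes of JAK-STAT signalling, through which leptin acts, 3 fell, none rose and 11 were negative (median -0.14). Over all genes 3.21% fell and 46.6% were positive. Socs3, the feedback inhibitor that leptin induces in the brain, had 14.9, 22.2 and 28.9 CPM in Leptin-antibiotic and 18.5, 34.9 and 46.6 CPM in Saline-water (log2 fold change -0.62, SE 0.198, adjusted p = 0.0443). The groups overlapped, with 2 Leptin-antibiotic libraries below every Saline-water library. Socs1 (-0.54, adjusted p = 0.0393) and Stat5a (-0.27, 0.0181) were the other falls. Socs1 and Socs3 each passed in 4 of 12 fits with a library left out, 1 gene of the list fell without Leptin-antibiotic 2, 3, 4 or 6 or Saline-water 12 or 14, and none of the 3 passed in the fit of 12 libraries.

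Sesn1, a FoxO target that restrains growth signalling, rose, with 121, 149 and 183 CPM in Leptin-antibiotic and 79.5, 86.7 and 127 CPM in Saline-water (0.65, SE 0.124, adjusted p = 0.00219). Its list of insulin and FoxO genes gave 3 rises and 1 fall in 15, 1 rise without Saline-water 9, 11 or 12, and a median of 0.05 that was -0.02 under upper quartile scaling. None of 23 immediate early genes passed, with Fos at 0.42 on the log2 scale (adjusted p = 0.141) and Nr4a1 at -0.61 (adjusted p = 0.298).

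In the stress responses 8 of 25 unfolded protein and integrated stress genes rose and 1 fell (median 0.22). Hspa5, the main chaperone of the endoplasmic reticulum, had 510, 618 and 816 CPM in Leptin-antibiotic and 387, 460 and 524 CPM in Saline-water (log2 fold change 0.44, SE 0.109, adjusted p = 0.0115). Herpud1 (0.65, adjusted p = 0.00966) and Sel1l (0.29, 0.00599), both of the degradation machinery of that organelle, and the co-chaperone Dnajb11 (0.36, 0.0133) rose. Saline-water 10 was high in Herpud1, at 218 CPM beside a next value of 118 CPM, and without it the log2 fold change was 0.86. Without Saline-water 11 or 12, 4 of the 25 rose. Dnaja1 (0.64, adjusted p = 0.00237) was 1 of 2 rises among 18 heat shock genes, beside 7.86% of all genes that rose. With a library left out, 1 to 6 heat shock genes rose, the 6 being without Saline-water 10.

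Few genes of fatty acid oxidation rose. Of 38 genes of PPAR-alpha and oxidation, 4 rose, 33 were positive and the median was 0.13, and none rose under upper quartile scaling or without Leptin-antibiotic 1, Saline-water 9 or Saline-water 12, against 7 without Saline-water 10. The nuclear receptor gene Ppara rose (0.43, adjusted p = 0.0434) and passed in 3 of 12 fits with a library left out. Angptl4, an inhibitor of lipoprotein lipase, had 35.9, 45.6 and 74.7 CPM in Leptin-antibiotic and 10.6, 12.5 and 70.6 CPM in Saline-water (1.21, SE 0.409, adjusted p = 0.0553). The value of 70.6 CPM was Saline-water 10, the next being 17.1 CPM, and without it the log2 fold change was 2.01 (adjusted p = 0.000372).

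Cholesterol synthesis genes rose in 6 of 25, in 2 under upper quartile scaling and in 2 without Saline-water 12. Msmo1, a sterol methyl oxidase, averaged 72.4 ± 7.41 CPM in Leptin-antibiotic and 47.6 ± 7.76 CPM in Saline-water (SD, n = 6 each; log2 fold change 0.60, adjusted p = 0.000478). Fatty acid synthesis gave 1 rise and 1 fall in 17. Gut peptide hormones gave no call in 12, Cck having 20.3, 24.7 and 29.6 CPM in Leptin-antibiotic and 23.3, 26.2 and 36.6 CPM in Saline-water (-0.16, adjusted p = 0.457).

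Markers of immune cells were mostly lower without passing, where 46.6% of all genes were positive and 3.21% fell. T cell markers were negative in 15 of 16, with a summed level of 126 to 252 CPM in Leptin-antibiotic and 149 to 300 CPM in Saline-water. B and plasma cell markers were negative in 11 of 11, at 325 to 743 CPM in Leptin-antibiotic and 414 to 769 CPM in Saline-water. The only one to pass was Ms4a1, CD20, which marks B cells (-2.15, SE 0.393, adjusted p = 0.00176), at 0.0239 to 0.169 CPM in Leptin-antibiotic and 0.207 to 0.629 CPM in Saline-water, that is 1 to 8 and 7 to 28 counts per library. Macrophage and dendritic cell markers were negative in 16 of 18, at 225 to 354 CPM in Leptin-antibiotic and 261 to 371 CPM in Saline-water, with Clec9a of a dendritic cell subset passing (-0.49, adjusted p = 0.0474) but in 2 of 12 fits with a library left out. None of 6 mast cell and granulocyte genes passed. The part of these cells in the class II, interferon and defence results was not tested.

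Stroma and neighbouring tissue gave few calls. Of 17 fibroblast genes 1 fell, Pdgfra (-0.26, adjusted p = 0.0454), in 5 of 12 fits with a library left out. No gene passed among smooth muscle, enteric neuron and glia, endothelium, tuft cell, adipose, liver, and Brunner gland and stomach markers. Exocrine pancreas genes were positive in 28 of 28 with a median of 1.93, and 1 passed, the lipase gene Pnliprp2 (1.22, SE 0.231, adjusted p = 0.00219), at 25.7, 30.3 and 58.6 CPM in Leptin-antibiotic and 11, 11.8 and 25.6 CPM in Saline-water. Without Leptin-antibiotic 3 the list's median was -0.974. With the 5 pancreas-high libraries of the set left out, 1078 genes were higher and 436 lower.

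The single treatments against the same Saline-water libraries gave far fewer calls. Saline-antibiotic against Saline-water gave 32 genes (0.196%) in edgeR, 183 in DESeq2 and 81 in limma. Leptin-water against Saline-water gave 0 (0%) in edgeR, with 1194 genes at an unadjusted p under 0.05, 5 in DESeq2 and 0 in limma, and 10 in edgeR without Saline-water 10. Leptin-antibiotic against Saline-antibiotic gave 84 genes (0.514%) in edgeR, 443 in DESeq2 and 96 in limma. Leptin-antibiotic against Leptin-water gave 372 (2.28%) in edgeR, 780 in DESeq2 and 1394 in limma. Without the pancreas-high libraries, 3 of which are Saline-antibiotic, Leptin-antibiotic against Saline-antibiotic gave 0 genes in edgeR, with 1331 at an unadjusted p under 0.05. With 1 of the 12 Leptin-antibiotic and Saline-water libraries left out in turn it gave 9 without Leptin-antibiotic 3 and 183 without Saline-water 13, the comparison with Leptin-water gave 91 without Leptin-antibiotic 2 and 650 without Saline-water 13, and Saline-antibiotic against Saline-water gave 16 without Saline-water 10 and 100 without Saline-water 9. All of these comparisons share libraries with the main one, so their values are set side by side without a test of likeness.

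For S100g, Cyp2c55, Ces2a and Hmox1 the fall with antibiotic alone was as large as with both. Saline-antibiotic against Saline-water gave 13 falls with all libraries and 7 with the pancreas list mean as covariate. Without the pancreas-high libraries it gave 2, so not all of these genes kept their call there. S100g had log2 fold changes of -0.93 in Leptin-antibiotic, -1.15 in Saline-antibiotic (adjusted p = 0.00788) and 0.09 in Leptin-water, each against Saline-water. Cyp2c55 had -1.77 in Leptin-antibiotic, -1.96 in Saline-antibiotic (0.00802) and 0.31 in Leptin-water, and Ces2a had -1.25, -1.51 (0.00802) and 0.30 in the same order. Hmox1 had -1.83 in Leptin-antibiotic, -2.06 in Saline-antibiotic (0.0388) and -1.06 in Leptin-water. All of these Hmox1 values share Saline-water 13, at 25 CPM beside a next Saline-water value of 4.56 CPM. Leptin-water held 2.66 to 5.25 CPM of Hmox1. Without Saline-water 13 the value in Leptin-antibiotic was -0.86. Cyp4b1 rose with antibiotic alone too, but less, with 1.47 in Leptin-antibiotic, 0.96 in Saline-antibiotic (0.00802) and 0.33 in Leptin-water, and its difference of 0.51 between the antibiotic groups did not pass (adjusted p = 0.116).

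Some genes were higher in Leptin-antibiotic than in Saline-antibiotic. Tsc22d3 had 0.79 in Leptin-antibiotic, -0.05 in Saline-antibiotic and 0.44 in Leptin-water, and Leptin-antibiotic against Saline-antibiotic gave 0.84 (adjusted p = 0.016). Dgat2 had 0.77 in Leptin-antibiotic, -0.03 in Saline-antibiotic and 0.27 in Leptin-water, with 0.80 (0.0183) between the antibiotic groups. Usp2 (0.71, adjusted p = 0.0183), Noct (0.90, 0.0257), Bcl6 (1.00, 0.0098), Fut4 (0.86, 0.0098), Muc3 (0.93, 0.0285) and Fkbp5 (1.48, 0.0282) were likewise higher in Leptin-antibiotic than in Saline-antibiotic. None of these calls between the antibiotic groups held without the pancreas-high libraries or with 3 tissue list means as covariates, where 0 genes passed. That comparison gave 10 genes without Leptin-antibiotic 2 and 9 without Leptin-antibiotic 3. Against Saline-water, Saline-antibiotic had values of 0.07 for Usp2, 0.08 for Noct and -0.04 for Muc3, and lower ones, none of which passed, of -0.17 for Fut4 (adjusted p = 0.624), -0.33 for Bcl6 (0.44) and -0.74 for Fkbp5 (0.332). Over the lists, the median of sugar genes was 0.54 in Leptin-antibiotic, 0.1 in Saline-antibiotic and 0.16 in Leptin-water, and that of respiratory chain genes was 0.35, 0.15 and 0.07 in the same order.

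Whether the double treatment departed from the sum of the single ones was tested for each gene as an interaction. No gene passed in edgeR (lowest adjusted p = 0.772, 1043 genes at an unadjusted p under 0.05), DESeq2 or limma. The interaction has a larger error than each comparison, and a p that misses the threshold does not show that the effects add.

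**Figure D5:**
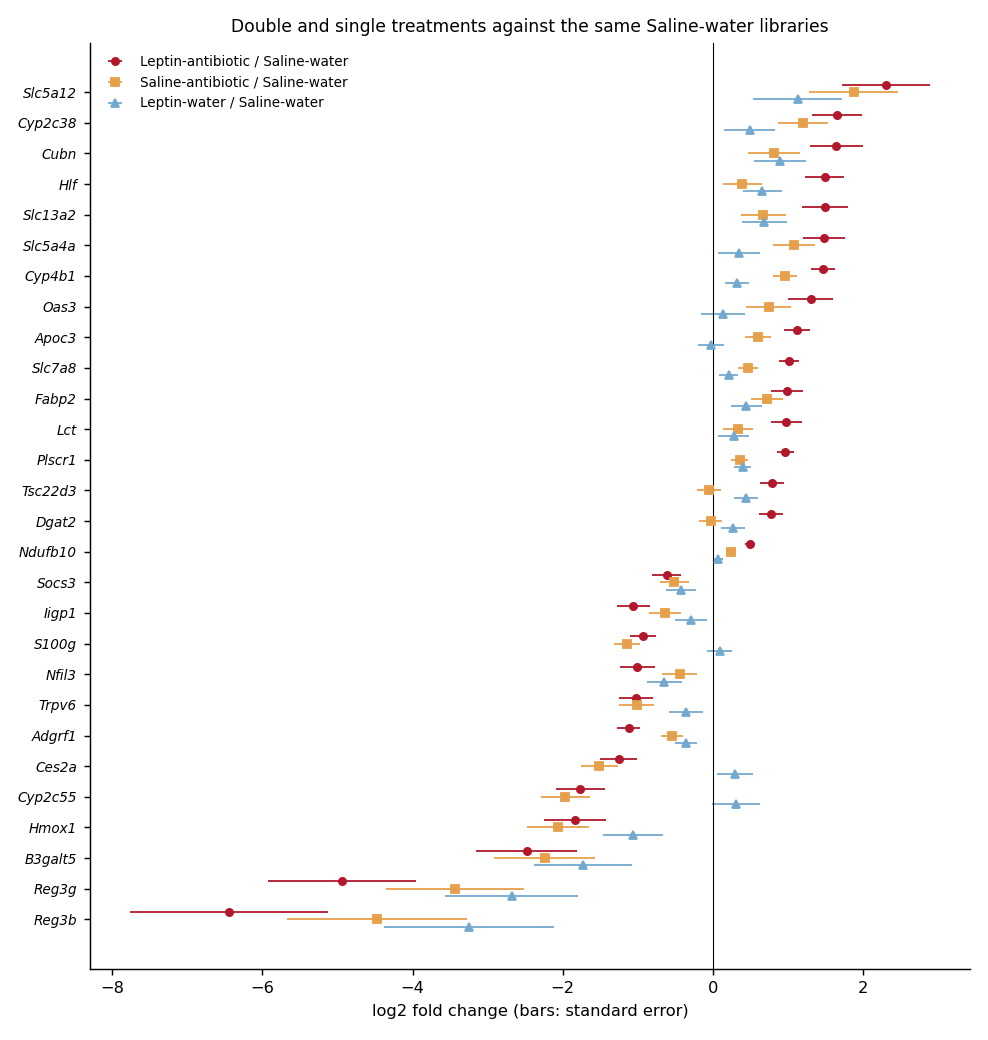
Log2 fold changes with standard errors of 28 genes against the same Saline-water libraries, for Leptin-antibiotic (red circles), Saline-antibiotic (orange squares) and Leptin-water (blue triangles). S100g, Ces2a and Cyp2c55 have red and orange points together and blue points above 0, while Tsc22d3 and Dgat2 have orange points near 0.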

How the data were processed

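Duodenal RNA of 39 libraries was sequenced as stranded total RNA with ribosomal depletion, from 150 ng of RNA in paired reads of 50 bp, per the labels' protocols. The authors deposited a filtered table of raw counts, 16358 gene symbols in all 39 libraries. edgeR 3.42.0, featureCounts, HISAT2 and FastQC, with build mm10, are listed in the submitters' processing notes. No source used here gives the strand setting, the annotation or the rule of the filter. Positions come from GENCODE vM21 (GRCm38) and promoter windows from RefSeq GRCm38.p6.

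Groups follow the sample titles. The counts of the 24 libraries that share a column prefix, 4 groups of 6, were filtered with filterByExpr, leaving 16340 genes. They were scaled by TMM and fitted with edgeR 4.0.16 in R 4.3.3 (quasi-likelihood test, 20 residual degrees of freedom from the design). P-values were Benjamini-Hochberg adjusted over all genes, and genes under 0.05 were called. Standard errors are the log2 fold change divided by the root of F. CPM values are TMM-scaled. The script was tested on simulated data. Alternatives were DESeq2 1.42.0, limma 3.58.1 with voom quality weights, other scalings and filters, the 12 libraries alone, tissue covariates and leaving out each of the 12 Leptin-antibiotic and Saline-water libraries; no Saline-antibiotic or Leptin-water library was left out singly. Leaving out both Saline-water 9 and Saline-water 10 was added after seeing the data.

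Named genes were, among called genes whose mean log2 CPM reached 1 and that are not predicted or unnamed, the 10 with the highest and the 10 with the lowest fold change, 5 more per direction by p, up to 4 called members per list (2 members by p where none was called) and a fixed panel of 19; the text names 110 of these 160. The members and the 51 gene lists were chosen with earlier results of these data known.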

Additional observations from a re-analysis of the deposited data

Results flagged for a closer look

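Among 220 groups of 6 libraries (110 named genes in the 2 groups), 29 held a library farther from the others than Dixon's 95% limit for 6 values allows. Most were in single libraries of Saline-water. The limit flags about 1 in 20 groups of independent, normally distributed values. Here CPM was used without a log scale, the genes were chosen from these data, and several flags share a library. The 29 can therefore not be set against that rate.

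Saline-water 9 was flagged for high values of Reg3b (7110 CPM, next 265), Reg3g (3100, next 177), B3galt5 (202, next 9.47), Ptk6 (36.9, next 4.99), Duox2 (62, next 15.3), Duoxa2 (5.6, next 1.37), Pla2g5 (25.4, next 6.71), Tifa (38.9, next 8.65) and Muc4 (236, next 136).

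Saline-water 10 was flagged for high values of Tsc22d3 (109 CPM, next 55.8), Bcl6 (46.1, next 25.9), Fut4 (131, next 88.4), Kcnk5 (103, next 70.4), Herpud1 (218, next 118) and Angptl4 (70.6, next 17.1). In each of these genes that library lay within the Leptin-antibiotic range.

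Saline-water 13 was flagged for Hmox1 (25 CPM, next 4.56) and Nr1h3 (33.1, next 28.2), Saline-water 12 for Ciita (45.9, next 28.8) and Saline-water 14 for Nr4a1 (13.7, next 5.39).

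In Leptin-antibiotic, replicate 2 was flagged for high Apol9b (64.8 CPM, next 27.2), Oas3 (165, next 79.3) and Usp18 (54.7, next 19.7), all interferon-responsive, and for low Muc4 (60.6, next 69.9). Replicate 3, the library high in exocrine pancreas genes, was flagged for Ifi30 (155, next 128), Fut4 (175, next 135), Herpud1 (269, next 207) and Cyc1 (313, next 255), and replicate 5 for Gsdma2 (35.4, next 10.8) and the stomach marker Tff1 (279, next 78.5).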

How the results depend on the processing

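No paired analysis was possible because the Leptin-antibiotic libraries carry replicate numbers 1 to 6 and the Saline-water libraries 9 to 14, so no number is shared. No gene called in the comparison changed sign in any setting run. Of 103 called genes named here, 86 kept the call in all 12 fits with a library left out and 77 in all other settings. The total of 1809 called genes was 835 with the 12 libraries alone, 579 at an adjusted p of 0.01 and 2982 at 0.1, and 1098 to 2056 with a library left out. Genes called higher were 731 under upper quartile scaling, 558 with 12 libraries, 466 at 0.01 and 710 to 1425 with a library left out. Genes called lower were 896 with DESeq2, 1173 under upper quartile scaling, 277 with 12 libraries, 846 with 3 tissue covariates, 113 at 0.01, 1113 at 0.1 and 335 to 675 with a library left out. The fit of 12 libraries has fewer residual degrees of freedom; the cause of the other shifts was not tested. The median of the clock output list was 0.551 without both Saline-water 9 and Saline-water 10. With a library left out, the list medians were 0.343 to 0.515 for amino acid carriers, -0.0615 to 0.116 for regional factors and -0.974 to 2.74 for exocrine pancreas, which was -0.958 without the pancreas-high libraries. No gene departed from the sum of the single treatments in any setting. Depth limits the scarcest gene named, Ms4a1, which rested on 1 to 8 counts per library in Leptin-antibiotic and 7 to 28 in Saline-water.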
